A study of Mus musculus with 6 samples.

Results

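The 9 genes described here are the CXC chemokines Cxcl1, Cxcl2, Cxcl3, Cxcl10, Cxcl12, Cxcl14 and Cxcl16 and the chemokine receptors Cxcr2 and Cxcr4. They were taken by symbol from the 32285 genes of a single-cell count matrix of mouse brain after stroke, and all 9 were present. Cells came from the brain cortex of male RGS5::GFP het mice aged 8 to 12 weeks, in which GFP replaces 1 allele of Rgs5 and is driven by its promoter, with permanent occlusion of the middle cerebral artery. The 6 groups were the contralateral and the ipsilateral side at 1, 12 and 24 h, with 1 library each and no group of unoperated mice. By the paper, fewer mice than libraries were used for single-cell sequencing, so libraries share animals. Live cells depleted of neurons were sorted and sequenced in droplets. The labels name the groups, but no source used here ties a group to the library numbers 1 to 6 carried by the barcodes, so no value below belongs to a hemisphere or a time.

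CXC chemokines are small secreted proteins that direct the migration of leukocytes along a gradient. Ligands with a glutamate-leucine-arginine (ELR) motif, among them Cxcl1, Cxcl2 and Cxcl3, act on Cxcr2 and recruit neutrophils, while interferon-inducible ligands such as Cxcl10 act on Cxcr3 of activated lymphocytes. Cxcl12, made by endothelial and stromal cells, holds and guides cells that carry Cxcr4 and is taken up by the scavenger receptor Ackr3. Cxcl16 is made as a membrane-bound protein that binds Cxcr6 and is shed by proteases, and Cxcl14 is a constitutively expressed ligand whose receptor is not settled.

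The genes of the ELR ligands Cxcl1, Cxcl2 and Cxcl3 lie near each other on the plus strand of chromosome 5 (GRCm38, GENCODE vM21). Cxcl3 (ENSMUSG00000029379) spans chr5:90786103-90789600, Cxcl1 (ENSMUSG00000029380) spans chr5:90891241-90893115 and Cxcl2 (ENSMUSG00000058427) spans chr5:90903871-90905938, within 120 kb. Cxcl10 (ENSMUSG00000034855) lies 1.44 Mb further on the minus strand, at chr5:92346638-92348889, and its exons overlap Art3 on the opposite strand. Of the 31-base words in the Cxcl2 transcripts, 7.59% also occur in Cxcl3. Of those of Cxcl3, 5.46% occur in another gene, 161 of these 193 words in Cxcl2. A read made up of shared words alone cannot be assigned to 1 gene, and how many reads were of this kind was not tested. Cxcl1, Cxcl10, Cxcl14, Cxcl16 and Cxcr4 share no such word with any other gene.

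Promoter sequences are shown for these 4 ligands, taken as inducible genes, which differed at least 4-fold between libraries in a class described below. So did Cxcl12 in pericyte-like cells (5.53-fold) and, in monocyte-derived macrophage-like cells, Cxcl16 (4.28-fold) and Cxcl14 (3.68 and 91.0 CPM). Whether a motif goes with a difference between libraries was not tested. The stretches are from RefSeq (GRCm38.p6), end 29 bases before the annotated start site, and carry in capitals each match to the NF-kB motif (GGGA, any base, TT, any base, CC) or the interferon response motif (GAAA, any 2 bases, GAAA), searched on both strands. They lie at chr5:90891120-90891216 for Cxcl1, chr5:90903774-90903870 for Cxcl2 and chr5:90785976-90786072 for Cxcl3, all on the plus strand, and at chr5:92348918-92349109 on the minus strand for Cxcl10.
Cxcl1: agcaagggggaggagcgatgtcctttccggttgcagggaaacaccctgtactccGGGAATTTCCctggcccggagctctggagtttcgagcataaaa
Cxcl2: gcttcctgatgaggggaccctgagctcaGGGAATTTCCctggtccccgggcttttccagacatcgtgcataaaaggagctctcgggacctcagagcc
Cxcl3: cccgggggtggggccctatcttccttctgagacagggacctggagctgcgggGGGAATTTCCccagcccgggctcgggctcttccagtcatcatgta
Cxcl10: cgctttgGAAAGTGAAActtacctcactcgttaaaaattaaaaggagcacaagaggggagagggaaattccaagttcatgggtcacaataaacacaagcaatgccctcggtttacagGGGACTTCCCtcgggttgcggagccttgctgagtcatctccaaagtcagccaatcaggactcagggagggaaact

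The ELR ligands carried the same 10 letters, GGGAATTTCC, and Cxcl10 carried GGGACTTCCC. The matches began 71 bases before the start site in Cxcl1, 97 in Cxcl2, 73 in Cxcl3 and 103 in Cxcl10. The NF-kB motif occurred in 1.2% of 32851 mouse promoter windows of the same 300 bases. The interferon response motif occurred in 3.44% of them and, among the members, in Cxcl10, where it began 213 bases before the start site, and in Cxcl14, where it began 172 bases before it. Windows were found for 8 of 9 members, and those of Cxcl12, Cxcr2 and Cxcr4 held neither motif.

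The 6 libraries held 12427757 to 40793772 unique molecular identifiers (UMIs) over all barcodes and 1221 to 5873 cells each after filtering, with 5053 to 5661 UMIs per cell at the median. The 17357 cells fell into 27 clusters and 15 classes, each given the name of a cell type whose markers it carried, written as "-like". Microglia-like cells were the most numerous (8131), followed by oligodendrocyte-like (2801) and endothelial-like cells (2749). A cluster of 134 cells led by Cd74 and H2-Aa did not score for any cell type clearly enough to be named and is called class II-high. The libraries differed in makeup: monocyte-derived macrophage-like cells numbered 0, 3, 11, 121, 4 and 235 in libraries 1 to 6, and neutrophil-like cells 0, 14, 22, 91, 5 and 47. In all, 26 barcode sequences occurred in more than 1 library. Levels are CPM, the UMIs of a gene over the cells of a class, scaled to a total of 1000000 UMIs, and ranges after a level or ratio are exact 95% intervals that cover counting error only. There are no replicate libraries, hence no p-value, and all pooled values describe these libraries.

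Each member had its own pattern over the classes. Monocyte-derived macrophage-like cells led for Cxcl1, Cxcl2 and Cxcl3, perivascular macrophage-like cells for Cxcl10, endothelial-like cells for Cxcl12, astrocyte-like cells for Cxcl14, class II-high cells for Cxcl16 and neutrophil-like cells for Cxcr2 and Cxcr4. The leading class was at least 2-fold above the next for 2 of the 9 members, Cxcl14 and Cxcr2. Among 12115 genes with at least 20 CPM in their leading class the same held for 31.5%. Over the members, the median level in the leading class was 620 CPM and the median ratio to the next class was 1.46.

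**Figure D1:**
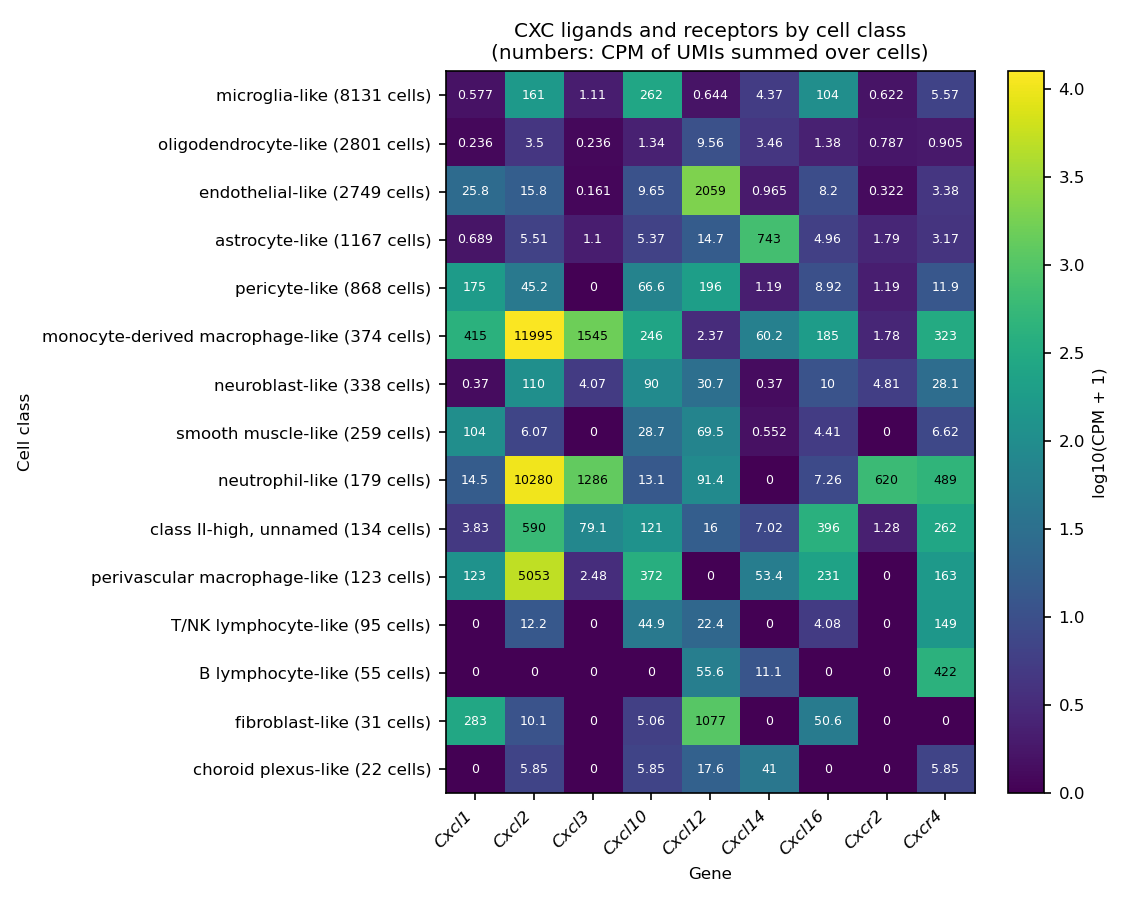
Level of the 9 members (columns) in the 15 cell classes (rows, with cell numbers), as CPM printed in each field and log10(CPM + 1) in colour. Cxcl12, Cxcl14 and Cxcr2 are bright in few rows, at 2059 CPM in endothelial-like, 743 CPM in astrocyte-like and 620 CPM in neutrophil-like cells, while Cxcl2 runs from 11995 CPM in monocyte-derived macrophage-like cells to 0 in B lymphocyte-like cells.

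Among the neutrophil-attracting ligands, Cxcl2 had its highest levels in infiltrating and border myeloid classes. Monocyte-derived macrophage-like cells had 11995 CPM (11878 to 12112), neutrophil-like cells 10280 CPM (10042 to 10522), perivascular macrophage-like cells 5053 CPM (4899 to 5210) and class II-high cells 590 CPM. The next class, microglia-like cells, had 161 CPM. The first 2 of these classes were close, with a ratio of 1.17 (1.138 to 1.197), and their order turned with the library: the ratio was 1.53 (1.48 to 1.58) in library 4 and 0.779 (0.747 to 0.814) in library 6. A Cxcl2 UMI was found in 75.7% of monocyte-derived macrophage-like, 83.2% of neutrophil-like and 50.4% of perivascular macrophage-like cells. In oligodendrocyte-like cells, which should lack the gene, the share was 1.29%, at a median of 8876 UMIs per cell against 8849, 3138 and 6166 UMIs in these classes. With every cell thinned to 1000 UMIs, the shares were 66.8%, 74.9%, 40.7% and 0.321%.

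Cxcl2 of the resident myeloid cells differed between libraries. Microglia-like cells had 6.13, 11.5, 24.4, 265, 30.3 and 502 CPM in libraries 1 to 6, so that library 6 was 82.0-fold (43.1 to 179) above library 1. Of all genes with at least 20 CPM in microglia-like cells, 3.04% differed at least 4-fold between the highest and the lowest library. Perivascular macrophage-like cells had 3198 CPM in library 3, 9689 CPM in library 4 and 3319 CPM in library 5, and neutrophil-like cells 7017, 10879 and 13100 CPM in libraries 3, 4 and 6. In library 3, neutrophil-like and perivascular macrophage-like cells thus had much Cxcl2 and microglia-like cells little. Cxcl2 in free RNA, measured in barcodes of 1 to 50 UMIs, was 11.0, 25.8, 58.9, 632, 39.8 and 918 CPM in libraries 1 to 6, and its part in the low values of other classes was not tested.

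Most Cxcl3 lay in the infiltrating classes. Monocyte-derived macrophage-like cells had 1545 CPM (1503 to 1587) and neutrophil-like cells 1286 CPM (1203 to 1373), and 82.7% of its UMIs lay in the first of these classes. Perivascular macrophage-like cells, which had much Cxcl2, held 2 UMIs of Cxcl3, or 2.48 CPM (0.301 to 8.97). Microglia-like cells had 1.11 CPM. No UMI was found in 868 pericyte-like, 259 smooth muscle-like or 31 fibroblast-like cells, which allows up to 0.892, 1.66 and 15.2 CPM. The level of class II-high cells, 79.1 CPM, came to 96.0% from 1 cell.

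Cxcl3 was also 1 of 2 members, with Cxcl10, that differed at least 4-fold between the highest and the lowest library in the leading class, where 6.16% of 8701 genes did so. Only libraries with at least 20 cells of the leading class were compared. These were 2 for Cxcl1, Cxcl2, Cxcl3 and Cxcl16, 3 for Cxcl10, Cxcr2 and Cxcr4, and 6 for Cxcl12 and Cxcl14. The count thus does not cover the libraries left out for a member. In monocyte-derived macrophage-like cells Cxcl3 was 3787 CPM in library 4 and 499 CPM in library 6, a ratio of 7.59 (7.10 to 8.13), where 2.56% of genes in that class differed at least 4-fold, although 36.4% and 34.0% of the cells carried a UMI. The libraries thus differed in UMIs per positive cell, and 9 cells held most of the Cxcl3 UMIs of the class. In neutrophil-like cells Cxcl3 had 87.6 CPM in library 3, 1893 CPM in library 4 and 821 CPM in library 6. The lead of monocyte-derived macrophage-like over neutrophil-like cells rested on library 4: the ratio was 1.201 over all libraries and 0.819 without it.

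Cxcl1 had another distribution, with stromal and mural cells beside macrophages. Monocyte-derived macrophage-like cells had 415 CPM (393 to 437), fibroblast-like cells 283 CPM (214 to 368), pericyte-like cells 175 CPM (161 to 189), perivascular macrophage-like cells 123 CPM, smooth muscle-like cells 104 CPM and endothelial-like cells 25.8 CPM. Microglia-like cells had 0.577 CPM and neutrophil-like cells, high in Cxcl2 and Cxcl3, had 14.5 CPM. The monocyte-derived macrophage-like level came from few cells: 13.6% carried a UMI, and 6 cells held most of the UMIs. The same held for other classes. Most Cxcl1 UMIs lay in 2 cells of the fibroblast-like, 3 of the smooth muscle-like and 2 of the perivascular macrophage-like class. In pericyte-like and endothelial-like cells, 9 cells each held most. The ratio of monocyte-derived macrophage-like to fibroblast-like cells, 1.46, thus rested on few cells in both classes. The fibroblast-like class had 31 cells, of which 35.5% carried a UMI, against 0.214% of oligodendrocyte-like cells at medians of 5979 and 8876 UMIs.

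Within pericyte-like cells, Cxcl1 lay in 1 cluster. This cluster of 62 cells, marked by the cytokine Il11 at 4425 CPM, occurred in libraries 4 (28 cells) and 6 (34 cells) and in no other. Neither Il11 nor the members took part in the clustering. Cxcl1 was 1463 CPM (1343 to 1592) in the Il11-high cluster and 15.7 CPM (11.5 to 20.9) in the other 806 pericyte-like cells, a ratio of 93.2 (69.1 to 128). Within library 4 the levels were 822 and 26.3 CPM, a ratio of 31.3 (17.4 to 62.1), and within library 6 they were 1999 and 52.9 CPM, a ratio of 37.8 (23.6 to 64.4). The Il11-high cluster exceeded monocyte-derived macrophage-like cells of the same libraries, by 1.39 (1.15 to 1.68) in library 4 and by 5.78 (5.11 to 6.53) in library 6. These intervals do not cover the spread between cells. In library 4, 3 macrophage-like and 5 pericyte-like cells held most of the Cxcl1 UMIs of their classes. Of the Il11-high cells, 62.9% carried a Cxcl1 UMI, against 2.98% of the other pericyte-like cells, both without thinning. When thinned, the share of the Il11-high cells was 41.9%, and that of the others is not given here.

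The levels of pericyte-like cells by library followed this cluster. They were 3.89, 33.6, 5.27, 240, 2.67 and 776 CPM in libraries 1 to 6. In pericyte-like cells, 13.2% of genes with at least 20 CPM differed at least 4-fold between libraries. Without the Il11-high cells, Cxcl1 of pericyte-like cells still ran from 2.67 CPM in library 5, which is 1 UMI, to 52.9 CPM in library 6. The summed level of 7 NF-kB target genes (Nfkbia, Tnfaip3, Icam1 and others) was 1306 CPM in the Il11-high cluster and 490 CPM in the other pericyte-like cells. That of 10 genes that respond to tissue handling (Fos, Jun, Hspa1a and others) was 8081 and 3985 CPM, and that of 8 interferon-induced genes (Ifit1, Isg15, Rsad2 and others) was 341 and 96.5 CPM. All 3 lists were higher in the Il11-high cluster. Its cells came from libraries 4 and 6 only and the others from libraries 1 to 6, so cluster and library are mixed in these sums. The list genes were not kept out of the clustering. The part of the lists in the Cxcl1 level was not tested.

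Cxcl2 in the Il11-high cluster was 355 CPM (297 to 421) and differed between its libraries, at 41.7 CPM in library 4 and 617 CPM in library 6. The level in library 6 rested on few cells. Of the 127 Cxcl2 UMIs of pericyte-like cells there, 124 lay in this cluster, 51 lay in 1 cell and 2 cells held most. In library 4 Cxcl2 of the Il11-high cluster did not differ from that of the other pericyte-like cells beyond counting error (ratio 2.12, 0.670 to 6.39). All 13 cells with Cxcl2 in this cluster were among the 39 with Cxcl1, and none of the 62 had Cxcl3. The 0 for Cxcl3 allows up to 4.84% of cells with a UMI and does not limit the share of cells that express the gene.

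**Figure D2:**
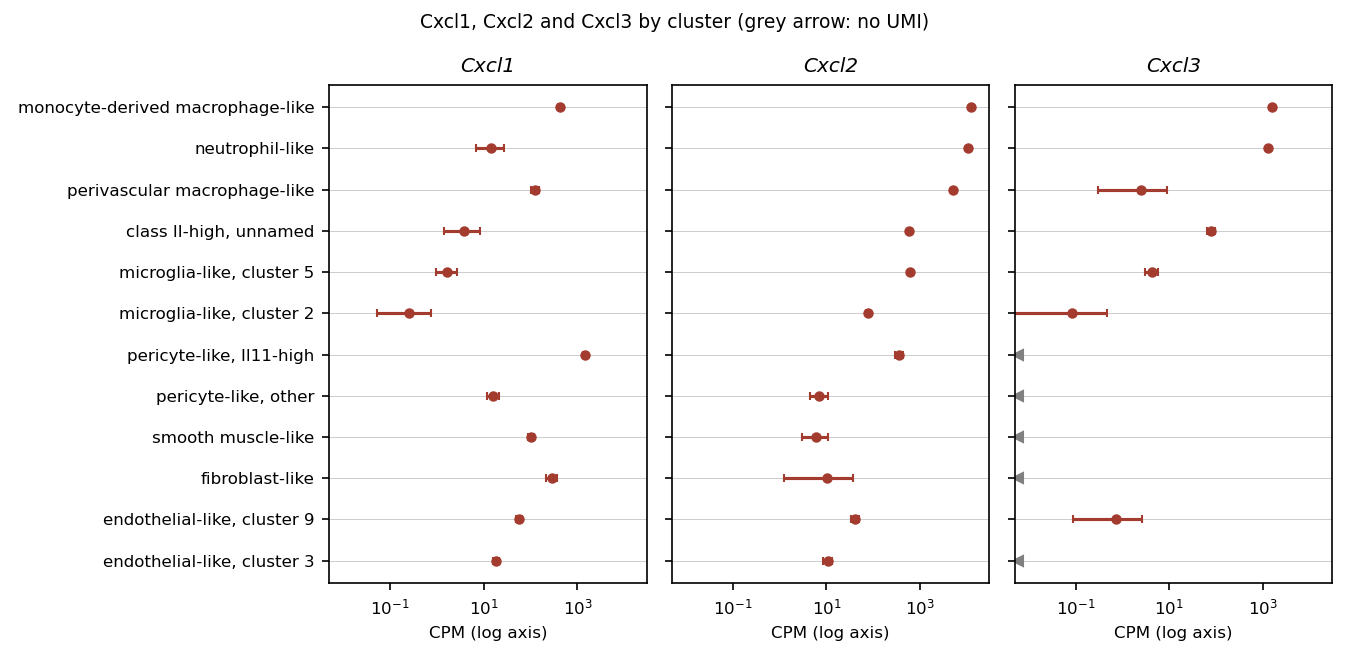
Levels of Cxcl1, Cxcl2 and Cxcl3 (one panel each, CPM on a log axis, bars for exact 95% Poisson intervals) in 12 clusters, with grey arrows where no UMI was found. Cxcl1 peaks in Il11-high pericyte-like cells at 1463 CPM, whereas Cxcl2 and Cxcl3 peak in monocyte-derived macrophage-like and neutrophil-like cells.

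Within monocyte-derived macrophage-like cells the ELR ligands were often found in the same cells. Of the 51 cells with Cxcl1, all 51 also carried Cxcl2, against 71.8% (66.6 to 76.7) of the cells without Cxcl1. Cxcl3 was found in 43.1% (37.3 to 49.1) of cells with Cxcl2 and in 2.20% (0.267 to 7.71) of those without. With cells thinned to 1000 UMIs, these shares of Cxcl3 were 29.6% and 0.806%. Cxcl3 was also found in 68.6% (54.1 to 80.9) of cells with Cxcl1 and in 27.6% (22.8 to 32.8) of those without. In neutrophil-like cells Cxcl3 was carried by 31.5% of cells with Cxcl2 and by 10.0% of those without, with overlapping intervals (24.2 to 39.7 and 2.11 to 26.5). Cells with a UMI of either gene can also be deeper or hold free RNA, and the part of the latter was not tested.

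Cxcl10, the interferon-inducible ligand, had 372 CPM (331 to 417) in perivascular macrophage-like cells, 262 CPM (257 to 267) in microglia-like cells and 246 CPM (229 to 263) in monocyte-derived macrophage-like cells. The first rested on 123 cells and on library 4: it was 790 CPM there, 109 CPM in library 3 and 290 CPM in library 5, and without library 4 its ratio to microglia-like cells was 0.943. The largest pool was microglia-like, with 11789 of 13854 UMIs. A UMI was found in 8.62% of microglia-like and 0.464% of oligodendrocyte-like cells (medians of 5150 and 8876 UMIs), or 5.29% and 0.0357% when thinned. In pericyte-like cells the level of 66.6 CPM came to 80.4% from 1 cell.

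The clusters of microglia-like cells differed in Cxcl10. Cluster 1 (2310 cells) had 5.09 CPM, cluster 0 (2412 cells) 56.5 CPM, cluster 2 (1968 cells, led by Cd83 and Ccl3) 123 CPM, cluster 5 (1397 cells, led by Spp1, Ccl12 and Lpl) 879 CPM and cluster 22 (44 cells, led by Ccl12 and genes such as Rsad2 and Ifit3) 1968 CPM. In cluster 22, 2 cells held most of the UMIs. Cluster 5 was 15.6-fold (14.4 to 16.8) above cluster 0 over all libraries, 5.81-fold (4.34 to 7.65) in library 3, 15.3-fold (12.9 to 18.4) in library 4 and 7.35-fold (5.87 to 9.34) in library 6. Its cells numbered 2, 6, 28, 792, 10 and 559 in libraries 1 to 6, so that its pooled values describe mostly libraries 4 and 6.

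Levels by library were 72.2, 109, 52.0, 395, 57.2 and 810 CPM in all microglia-like cells, 15.6-fold (14.5 to 16.8) apart between libraries 6 and 3. Within cluster 2, which had at least 129 cells in each library, they ran from 78.9 CPM in library 5 to 258 CPM in library 6, 3.28-fold (2.70 to 3.98) apart. Within cluster 0 they were 5.22, 55.9, 54.9, 51.2, 63.8 and 142 CPM in libraries 1 to 6. The 27.3-fold (8.98 to 135) spread of cluster 0 rested on library 1, with 3 UMIs, and the other 5 libraries lay between 51.2 and 142 CPM. Cxcl10 in free RNA was 9.39 to 27.7 CPM in libraries 1, 2, 3 and 5, 161 CPM in library 4 and 149 CPM in library 6.

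The lists of inducible genes followed different orders over these clusters. In clusters 1, 0, 2, 5 and 22 the summed interferon list was 32.6, 24.3, 31.4, 69.1 and 4189 CPM, the NF-kB list 485, 1328, 3696, 3593 and 1675 CPM, and the tissue handling list 3873, 17753, 40408, 17522 and 12967 CPM. Interferon-induced genes were far higher in cluster 22, where their levels took part in defining the cluster, than in cluster 5, which was in turn above clusters 0, 1 and 2. The tissue handling list, which does not single out handling, was highest in cluster 2. Within cluster 5, cells with a Cxcl10 UMI had 1.94-fold (1.90 to 1.97) the NF-kB list, 1.93-fold (1.66 to 2.24) the interferon list and 1.33-fold (1.32 to 1.34) the tissue handling list of cells without, with medians of 8190 and 6445 UMIs per cell. By library, all microglia-like cells had 2188, 1697, 1800, 2815, 2137 and 2877 CPM of the NF-kB list. Of the interferon list they had 18.4, 37.0, 41.1, 56.1, 46.7 and 143 CPM. Both lists and Cxcl10 were highest in library 6 and next in library 4. Below these the orders differed. The NF-kB list was lowest in library 2, the interferon list in library 1 and Cxcl10 in library 3. The part of these lists in the level of Cxcl10 was not tested.

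**Figure D3:**
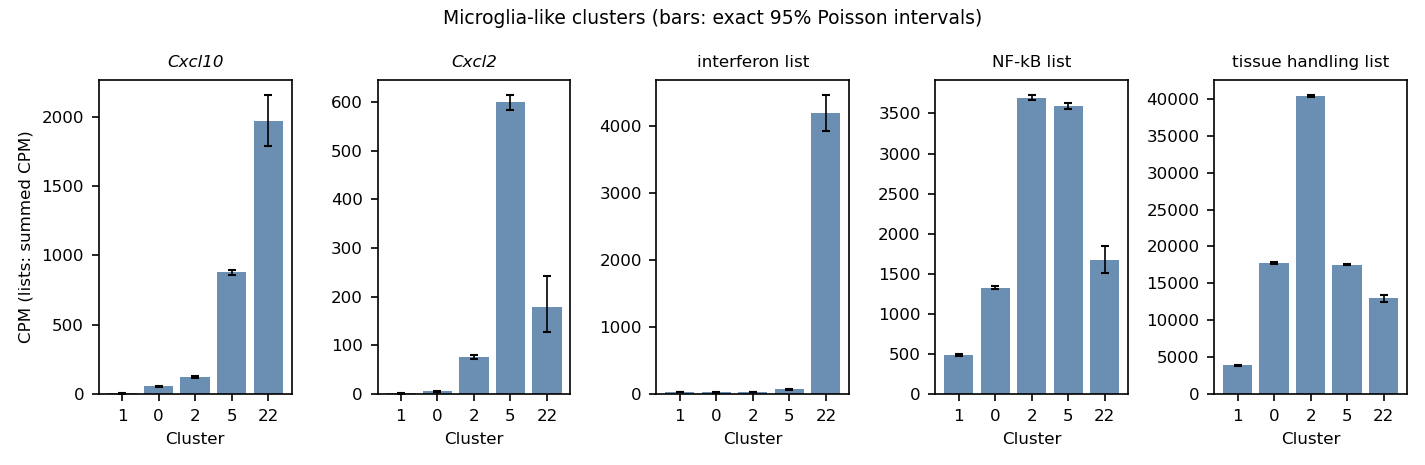
Level of Cxcl10 and Cxcl2 (CPM) and summed level of 3 lists of inducible genes (summed CPM) in the 5 microglia-like clusters, with exact 95% Poisson intervals. Cxcl10 is highest in cluster 22 (1968 CPM) and Cxcl2 in cluster 5 (599 CPM), while the tissue handling list peaks in cluster 2 (40408 CPM).

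Cxcl2 of microglia-like cells followed a similar but not the same order. It was 1.57 CPM in cluster 1, 5.70 CPM in cluster 0, 76.0 CPM in cluster 2, 599 CPM in cluster 5 and 179 CPM in cluster 22. Cluster 5 was above cluster 2 in library 4, at 542 and 154 CPM, and in library 6, at 715 and 36.9 CPM. In library 3 no UMI was found in the 28 cells of cluster 5, against 76.3 CPM in cluster 2 (ratio 0, up to 0.263). That bound covers counting error only. Of the 3316 microglia-like cells of library 3, 51 carried a Cxcl2 UMI. With so few positive cells, 28 cells cannot show whether the order differed there. Cxcl10 was found in 38.5% of microglia-like cells with Cxcl2 and in 7.18% of those without, or in 35.1% and 4.49% when thinned. Within cluster 5 the shares were 48.4% and 24.6%, at 48.7% and 22.6% in library 4 and 48.4% and 28.6% in library 6.

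Cxcl12 (ENSMUSG00000061353, chr6:117168535-117181367, plus strand) was the vascular member. Endothelial-like cells had 2059 CPM (2033 to 2084) and held 93.3% of its UMIs. Fibroblast-like cells had 1077 CPM (938 to 1232), pericyte-like cells 196 CPM (181 to 212) and smooth muscle-like cells 69.5 CPM, while perivascular macrophage-like cells had no UMI, which allows up to 3.72 CPM. A UMI was found in 79.3% of endothelial-like and 0.320% of microglia-like cells (medians of 4041 and 5150 UMIs), or 61.5% and 0.0492% when thinned. The signal of neutrophil-like cells, 91.4 CPM, came to 47.6% from 1 cell.

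Endothelial-like cells had 3315, 2565, 2750, 1279, 2445 and 1121 CPM of Cxcl12 in libraries 1 to 6, lower in libraries 4 and 6 than in the other 4. Library 1 was 2.96-fold (2.80 to 3.13) above library 6, and 5.93% of genes in endothelial-like cells were at least 4-fold apart between libraries. The summed level of 6 endothelial markers (Pecam1, Cldn5 and others) was 9010, 10964, 10386, 10195, 8251 and 8675 CPM and did not follow this order. Cxcl12 also differed between clusters. It was 2658 CPM in cluster 3 (1944 cells), 1685 CPM in cluster 14 (273 cells, led by Mgp) and 426 CPM in cluster 9 (532 cells, led by Ctla2a, Tmem252 and Lcn2). The cells of cluster 9 numbered 2, 7, 19, 177, 10 and 317 in libraries 1 to 6. Cluster 3 was 7.81-fold (6.75 to 9.08) above cluster 9 in library 4 and 4.01-fold (3.70 to 4.34) in library 6. Within cluster 3 alone the levels were 3710, 2807, 2981, 2021, 2625 and 2033 CPM, 1.84-fold (1.72 to 1.96) apart between libraries 1 and 4. The parts of cluster makeup and of endothelial RNA content in the spread between libraries were not tested.

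**Figure D4:**
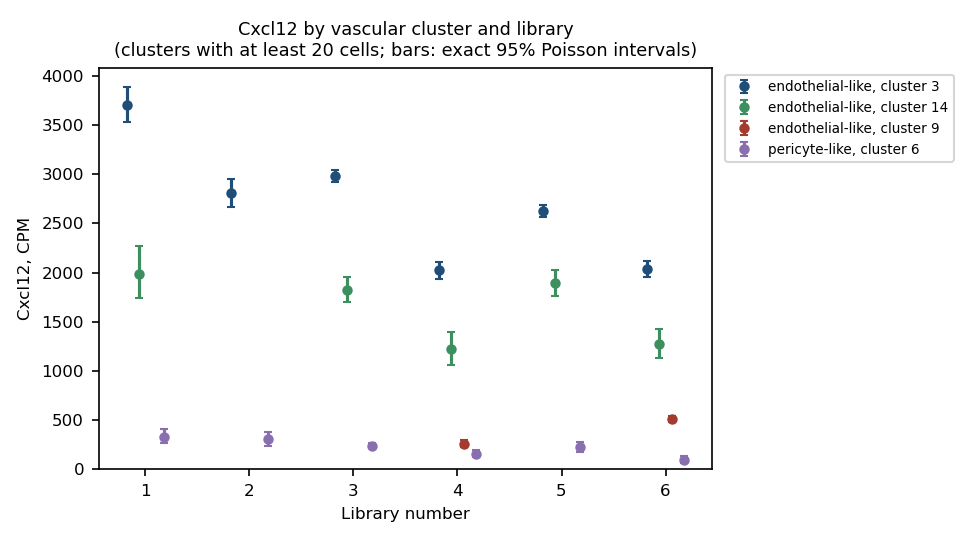
Cxcl12 (CPM, with exact 95% Poisson intervals) in 3 endothelial-like clusters and the larger pericyte-like cluster, by library number and for at least 20 cells. Cluster 3 lies between 2021 and 3710 CPM, cluster 9 at 259 and 507 CPM in the libraries that hold enough of it, and pericyte-like cells below 330 CPM throughout.

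In pericyte-like cells, Cxcl12 and Cxcl1 lay in different clusters. Cxcl12 was 219 CPM in the larger cluster and 13.5 CPM in the Il11-high cluster, a ratio of 16.1 (6.88 to 49.9), with ratios of 6.43 (2.40 to 24.2) in library 4 and 18.3 (3.05 to 747) in library 6. By library the larger cluster had 327, 303, 237, 153, 222 and 91.1 CPM. Endothelial RNA was measured in the same cells: for each 100 UMIs of the 6 endothelial markers there were 32.8 UMIs of Cxcl12 (30.4 to 35.4) in the larger pericyte-like cluster, 21.9 (21.6 to 22.1) in endothelial-like cells and 17.7 (16.8 to 18.7) in free RNA. The ratio in pericyte-like cells was thus above that of both over all libraries and, against endothelial-like cells, within libraries 2, 3 and 4. In libraries 1 and 5 the intervals overlapped, and in library 6 it was 8.81 (5.98 to 12.5) against 12.9 (12.5 to 13.4). How much of the pericyte-like signal was endothelial or free RNA was not tested. In fibroblast-like cells it was 1183 (1030 to 1353), with 18 marker UMIs in all.

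The scavenger receptor of Cxcl12, Ackr3, was found in the same vascular classes. It had 302 CPM (284 to 322) in pericyte-like, 147 CPM (130 to 166) in smooth muscle-like and 104 CPM (98.4 to 110) in endothelial-like cells. Like Cxcl12, it was lower in the Il11-high cluster (106 CPM) than in the other pericyte-like cells (327 CPM), at ratios of 1.62 (1.03 to 2.64) in library 4 and 4.33 (2.52 to 8.01) in library 6. Ackr1, which binds several inflammatory chemokines on venules, had 236 CPM in endothelial-like cluster 9 and no UMI in cluster 3, which allows up to 0.363 CPM, and 9.96% of the cells of cluster 9 carried it.

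Cxcl14 (ENSMUSG00000021508, chr13:56288643-56296551, minus strand) was the astrocyte member. Astrocyte-like cells had 743 CPM (723 to 763), 12.3-fold (10.7 to 14.3) above the next class, monocyte-derived macrophage-like cells at 60.2 CPM, and held 90.5% of the UMIs. A UMI was found in 80.1% of astrocyte-like and 1.14% of microglia-like cells (medians of 5593 and 5150 UMIs), or 44.6% and 0.307% when thinned. By library astrocyte-like cells had 607, 723, 811, 777, 694 and 587 CPM, 1.38-fold (1.24 to 1.55) apart. Of genes with at least 20 CPM in astrocyte-like cells, 8.46% differed at least 4-fold between libraries, and Cxcl14 did not. Cluster 7 had 914 CPM and cluster 10, the other astrocyte-like cluster, 256 CPM, with ratios between 3.28 and 3.92 in each of the 5 libraries that could be compared.

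The macrophage-like signal of Cxcl14 differed between libraries, at 3.68 CPM in library 4 and 91.0 CPM in library 6. Microglia-like cluster 5 had 14.9 CPM against 1.55 CPM in cluster 0. Cxcl14 in free RNA was 109 CPM in library 4 and 41.5 CPM in library 6. The part of free RNA in the macrophage-like signal was not tested.

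Cxcl16 (ENSMUSG00000018920, chr11:70453983-70459984, minus strand, with Zmynd15 on the opposite strand) was spread over the antigen-presenting and phagocytic classes. Class II-high cells had 396 CPM (365 to 428), perivascular macrophage-like cells 231 CPM (199 to 267), monocyte-derived macrophage-like cells 185 CPM (171 to 200) and microglia-like cells 104 CPM (101 to 107). The lead of class II-high cells rested on library 6, where they had 481 CPM against 188 CPM in library 4, and without library 6 their ratio to perivascular macrophage-like cells was 0.720. Monocyte-derived macrophage-like cells had 59.7 CPM in library 4 and 256 CPM in library 6, below and above the microglia-like cells of the same libraries (137 and 175 CPM). A UMI was found in 64.2% of class II-high, 31.6% of microglia-like and 0.893% of oligodendrocyte-like cells (medians of 10738, 5150 and 8876 UMIs), or 29.9%, 7.98% and 0.0357% when thinned.

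Microglia-like cells held 4690 of the 6377 Cxcl16 UMIs. Clusters 0, 1 and 2 had 64.2, 60.3 and 82.5 CPM and cluster 5 had 219 CPM, 3.42-fold (3.15 to 3.71) above cluster 0. That ratio was 3.33 in library 3, 3.07 in library 4 and 3.35 in library 6. Over all microglia-like cells the levels were 69.4, 84.5, 69.9, 137, 63.5 and 175 CPM in libraries 1 to 6. Within cluster 0 the libraries lay 1.70-fold (1.13 to 2.56) apart.

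The sheddases of Cxcl16 were widespread. Adam10 lay between 29.3 and 274 CPM in the 15 classes, with the highest level in microglia-like cells, and Adam17 was also highest there, at 129 CPM. Its receptor Cxcr6 was found in T/NK lymphocyte-like cells at 167 CPM (133 to 208). Other proteases are known to trim CXC ligands. Mmp9 had 514 CPM in neutrophil-like and 26.7 CPM in monocyte-derived macrophage-like cells, and Dpp4 had 55.6 CPM in B lymphocyte-like and 54.2 CPM in class II-high cells.

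Cxcr2 (ENSMUSG00000026180, chr1:74153989-74161246, plus strand), the receptor of the ELR ligands, marked neutrophil-like cells. Their level was 620 CPM (562 to 681), with the next class at 4.81 CPM and a ratio of 129 (74.5 to 244). A UMI was found in 80.4% of neutrophil-like and 0.643% of oligodendrocyte-like cells (medians of 3138 and 8876 UMIs), or 41.3% and 0.179% when thinned. Monocyte-derived macrophage-like cells, which led for the ELR ligands, had 1.78 CPM (0.653 to 3.87) of the receptor. In neutrophil-like cells it was 863 CPM (672 to 1092) in library 3, 665 CPM (585 to 754) in library 4 and 436 CPM (344 to 546) in library 6. Of the words in its transcripts, 7.7% also occur in other genes.

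Cxcr4 (ENSMUSG00000045382, chr1:128588199-128592293, minus strand) was shared by the leukocyte classes. Neutrophil-like cells had 489 CPM (438 to 544), B lymphocyte-like cells 422 CPM (333 to 529), monocyte-derived macrophage-like cells 323 CPM (304 to 343), class II-high cells 262 CPM (237 to 288), perivascular macrophage-like cells 163 CPM (136 to 193) and T/NK lymphocyte-like cells 149 CPM (117 to 187). Of these neighbours, neutrophil-like and B lymphocyte-like cells did not differ beyond counting error (ratio 1.16, 0.9003 to 1.505). The intervals of B lymphocyte-like and monocyte-derived macrophage-like cells overlapped, as did those of perivascular macrophage-like and T/NK lymphocyte-like cells. No ratio is given for these pairs, and overlap alone does not show that they did not differ. The ratio of neutrophil-like to monocyte-derived macrophage-like cells was 1.51 (1.34 to 1.71) over all libraries, 1.41 (1.18 to 1.69) in library 4 and 0.977 (0.713 to 1.31) in library 6, where the neutrophil-like cells had no lead. Apart from perivascular macrophage-like cells, the resident classes were far lower. They had 28.1 CPM in neuroblast-like, 11.9 CPM in pericyte-like, 5.57 CPM in microglia-like and 3.38 CPM in endothelial-like cells, the source of its ligand. A UMI was found in 62.6% of neutrophil-like, 77.5% of monocyte-derived macrophage-like and 0.821% of oligodendrocyte-like cells, or 35.8%, 28.6% and 0.0357% when thinned.

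Within neutrophil-like cells Cxcr4 was 801 CPM (616 to 1022) in library 3, 498 CPM (428 to 575) in library 4 and 275 CPM (203 to 365) in library 6, 2.91-fold (1.97 to 4.32) apart. Cxcr2 and Cxcr4 had the same order over these libraries, and Cxcl2 the opposite one, although the Cxcr2 intervals of libraries 3 and 4 overlapped. Cxcl3 followed neither order, at 87.6, 1893 and 821 CPM in libraries 3, 4 and 6 (22, 91 and 47 cells). Of genes with at least 20 CPM in neutrophil-like cells, 14.8% differed at least 4-fold between libraries. Neutrophil-like cells with Cxcr2 carried Cxcr4 in 66.0% (57.6 to 73.7) and those without in 48.6% (31.4 to 66.0), with overlapping intervals.

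**Figure D5:**
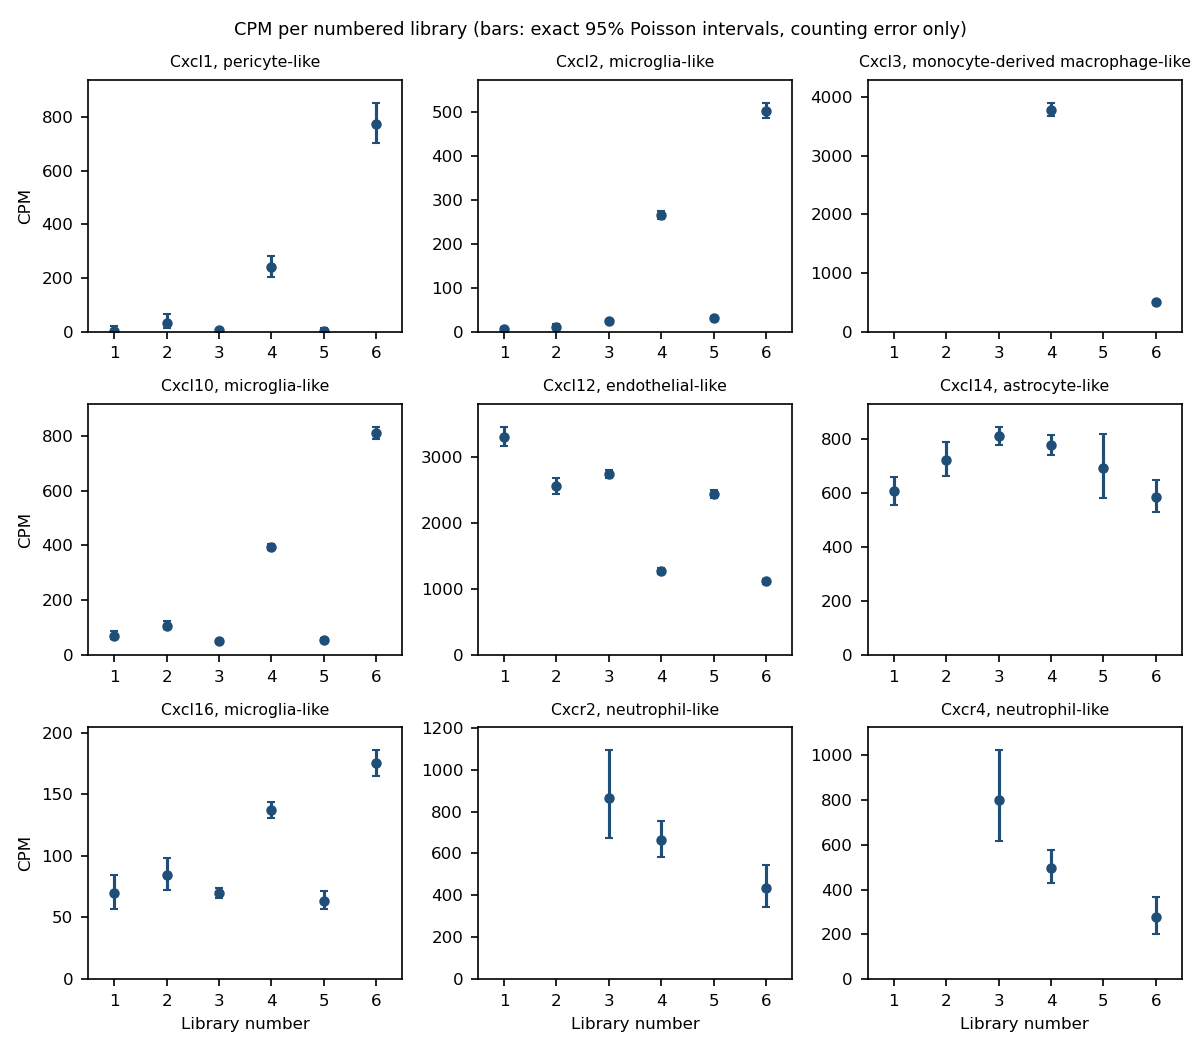
Level of each member (CPM, with exact 95% Poisson intervals) by library number in 1 class each, for libraries with at least 20 cells of the class. Cxcl1, Cxcl2, Cxcl10 and Cxcl16 are highest in library 6 in the classes drawn, Cxcl12 of endothelial-like cells is lowest there at 1121 CPM, and Cxcl14 of astrocyte-like cells stays between 587 and 811 CPM. The classes drawn for Cxcl1, Cxcl2, Cxcl10 and Cxcl16 are not their leading classes. In monocyte-derived macrophage-like cells, Cxcl1 was 590 CPM in library 4 and 346 CPM in library 6. Cxcl2 was 16643 and 10211 CPM there. Cxcl16 of class II-high cells was higher in library 6 than in library 4.

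Of the 13 other CXC family genes found in the matrix, 7 reached 20 CPM in a class and the other 6 had at most 17.4 CPM. Besides Ackr1, Ackr3 and Cxcr6, these were the platelet factor Pf4, at 1589 CPM in perivascular macrophage-like and 618 CPM in monocyte-derived macrophage-like cells, Ppbp at 51.6 CPM in monocyte-derived macrophage-like cells, Cxcr5 at 83.4 CPM in B lymphocyte-like cells, and Cxcr3. Cxcr3, the receptor of Cxcl10, had 61.2 CPM (41.3 to 87.4) in T/NK lymphocyte-like cells, which held 30 of its UMIs. Cxcl11 was not analysed here.

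The genes most like each member were those with the highest Pearson correlation of log2(CPM + 10) over the 15 classes, among 8393 genes. These classes share libraries and differ in depth. For Cxcl2 they were Lyz2 (0.972), Ccr1 (0.969) and Nlrp3 (0.968), for Cxcl3 Mefv (0.984) and for Cxcl1 Ecm1 (0.873), Phlda1 (0.849) and Il6 (0.820). Cxcl12 was closest to Map3k6 (0.938), Cxcl14 to Acot11 (0.868), Cxcl10 to Fcgr1 (0.874) and Cxcl16 to Tep1 (0.912). Among receptors, Cxcr2 was closest to Retnlg (0.999) and Cxcr4 to AB124611 (0.972). Between members, the correlation was 0.81 for Cxcl2 and Cxcl3, 0.77 for Cxcl10 and Cxcl16, 0.27 for Cxcl1 and Cxcl3 and -0.32 for Cxcl12 and its receptor Cxcr4.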

How the data were processed

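The authors deposited 1 matrix of whole-number UMI counts per gene and barcode, unfiltered, with 6794880 barcodes for each of 6 libraries. By their methods reads were processed with Cell Ranger and its aggregation step, which evens out depth between libraries. The submitters' processing notes name Cell Ranger 5 and mm10. The annotation is not given in the sources used here, and gene positions are from GENCODE vM21 (GRCm38). Cells were isolated by enzymatic digestion at 37 °C, and the 24 h libraries were run on another sequencer than those of 1 and 12 h, so that 24 h and the sequencer cannot be told apart.

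Cells were called per library as barcodes with at least 0.1 of the 99th percentile of UMIs of the 3000 deepest barcodes. The limits of the study (a minimum of 200 features per cell, and no more than 10% of counts from mitochondrial genes) then took 18468 called barcodes to 17357 cells, and these limits alone left 19864. Counts were log-normalized, and 2000 variable genes, 30 components, 20 neighbours and Leiden clustering at resolution 0.8 were used (Python 3.11.15, scikit-learn 1.9.0, leidenalg 0.10.2), without the members, the other CXC genes and Il11, 23 genes in all. Clusters were named from marker lists, requiring at least 3 markers raised 2-fold and a lead of 1 on the log2 scale. Erythroid markers could name a cluster only if hemoglobin made up over 50% of its counts. At resolutions 0.8 and 0.4, a cluster that fell into clusters of different classes at resolution 1.2 was divided along them. The perivascular macrophage-like and the class II-high cells were 1 cluster before this division. Of the 15 classes, 1 stayed unnamed, and a further cluster of 31 cells, all called doublets, was left out. Doublets were called by the Scrublet procedure (0.783% to 2.91% of the cells of a library) and kept.

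All cells were treated as 1 sample, since the labels cannot be tied to library numbers. UMIs were summed per class and given as CPM with exact Poisson, conditional and Clopper-Pearson 95% intervals, which cover counting error only. A level of 0 allows up to 3 counts. Classes or libraries with fewer than 20 cells were not compared. Scripts were tested on simulated data. Named besides the members were other CXC genes with at least 20 CPM in a class, proteases that cut CXC ligands, the 3 genes most like a member among those with at least 50 CPM, and leading genes of clusters on which a result turns. The members, lists and these rules were chosen with earlier results of these data known. Alternatives changed the cell call, mitochondrial limit, doublets, resolution, averaging, free RNA, deepest cell, libraries and minimum cell number, and 3 were chosen after seeing the data.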

Additional observations from a re-analysis of the deposited data

How the results depend on the processing

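Over 17 settings the leading class was kept in all 17 for Cxcl2, Cxcl12, Cxcl14, Cxcr2 and Cxcr4, in 16 for Cxcl1 and in 15 for Cxcl3, Cxcl10 and Cxcl16. The count of members led 2-fold by 1 class, 2 in the report, was 2 to 4 when a library was left out (4 without library 6, by Cxcl1, Cxcl3, Cxcl14 and Cxcr2), 3 at a mitochondrial limit of 5% or with the mean of single-cell CPM or with the Il11-high cluster as a class of its own, 4 when only classes of at least 50 cells were compared and 5 with libraries weighted equally. The count of members 4-fold apart between libraries fell from 2 to 1 (Cxcl3) with the mean of single-cell CPM or with at least 50 cells a library. The median level was 620 CPM, 684 CPM with the mean of single-cell CPM and 479 to 682 CPM when a library was left out, and the median ratio was 1.46, and 1.06 to 2.35 when a library was left out. The median share of cells with a UMI fell from 64.2% to 35.8% when cells were thinned. Ratios that turned were Cxcl3 of monocyte-derived macrophage-like to neutrophil-like cells, at 0.903 with the mean of single-cell CPM and 0.819 to 2.41 when a library was left out (0.819 without library 4), Cxcl10 of perivascular macrophage-like to microglia-like cells, at 0.943 to 2.35 when a library was left out (0.943 without library 4) and 0.789 with class II-high cells pooled in, and Cxcl16 of class II-high to perivascular macrophage-like cells, at 0.720 to 2.05 when a library was left out (0.720 without library 6). The cause was not tested. Of single-member values, 105 levels, 117 ratios and 18 shares stayed within their counting interval and 47, 28 and 18 left it. A further 5 ratios fell below 1 although their main interval lay above it. The settings with libraries weighted equally, with perivascular macrophage-like and class II-high cells pooled and with the Il11-high cluster apart were chosen after seeing the data. No paired analysis was possible because each group has 1 library and no source used here ties library numbers to groups. Depth limits absence: a 0 in the 22 choroid plexus-like cells allows up to 17.6 CPM, and one in pericyte-like cells up to 0.892 CPM.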
